A study of Mus musculus with 13 samples.

Results

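miR-137 and miR-138 are microRNAs of neurons, and their reads were followed in small RNA libraries from 2 mouse brain regions. The members were taken by hairpin name: every mature arm listed for mmu-mir-137, mmu-mir-138-1 or mmu-mir-138-2 in the 13 libraries. This gave 5 mature miRNAs from 3 hairpins (6 pairs of hairpin and mature sequence) among 1384 mature miRNAs with a read. The libraries came from hippocampus of FVB/N mice (n = 3) and TgR mice (n = 3), and from prefrontal cortex (PFC) of FVB/N mice (n = 3) and TgR mice (n = 4). FVB/N is an inbred strain, labelled wild type here. TgR mice carry, on that same FVB/N strain, a transgene for human AChE-R, the soluble "readthrough" splice form of the acetylcholine-hydrolysing enzyme acetylcholinesterase, which is driven constitutively by a minimal cytomegalovirus promoter-enhancer and not by the mouse gene's own promoter. Ages and sexes of the mice sequenced were not given in the sources used here, nor whether a hippocampus and a PFC came from the same mouse. Small RNA libraries hold no reading of the AChE-R transcript itself, so the genotype labels could not be checked in these files.

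A microRNA is cut from a folded precursor, the hairpin, whose 5′ and 3′ arms can each give a mature strand. One arm usually enters the Argonaute complex as the guide, pairs through its seed (bases 2 to 8) with messenger RNAs and represses them, while the other arm, the passenger, is mostly degraded. miR-137-3p, the guide of mir-137, is enriched in brain and is known for roles in neuronal maturation, dendrite growth and synaptic vesicle release; variants at its human locus are associated with schizophrenia. miR-138-5p, the guide of both mir-138 hairpins, is found in dendrites, where it limits spine size by repressing Lypla1, which encodes the depalmitoylating enzyme APT1.

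Since the 2 families are told apart by seed, the mature sequences (RefSeq) are given 5′ to 3′ with the seed in capitals. All 5 members matched an entry.
miR-137-3p: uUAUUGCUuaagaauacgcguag
miR-137-5p: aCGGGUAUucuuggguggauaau
miR-138-5p: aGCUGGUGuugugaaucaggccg
miR-138-1-3p: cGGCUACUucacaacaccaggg
miR-138-2-3p: gCUAUUUCacgacaccagggu
Each of the 5 seeds differed from the others, and 0 other mouse miRNAs in the table carried any of them. The 3p arms of the mir-138 hairpins were identical at 18 of 20 aligned bases, but the second sequence starts 2 bases further in and its seed differs for that reason and at a changed base. The hairpins are shown because they set which reads can be assigned to a locus; capitals mark the mature arms.
Mir137: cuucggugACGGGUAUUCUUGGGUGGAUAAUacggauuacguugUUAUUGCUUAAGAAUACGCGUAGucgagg
Mir138-1: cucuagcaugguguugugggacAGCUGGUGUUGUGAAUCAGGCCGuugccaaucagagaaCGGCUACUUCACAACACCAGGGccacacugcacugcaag
Mir138-2: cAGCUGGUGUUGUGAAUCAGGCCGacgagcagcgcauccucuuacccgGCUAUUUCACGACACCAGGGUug
Both mir-138 hairpins hold the same mature 5p arm inside an identical run of 24 bases, with 1 hairpin base before it in mir-138-2 and 22 in mir-138-1. A read of miR-138-5p alone therefore cannot be assigned to one of them, whereas miR-138-1-3p and miR-138-2-3p each belong to a single hairpin.

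In GRCm38.p6 all 3 hairpins lie on the plus strand. Mir137 is at chr3:118433857-118433929, inside an exon of the non-coding gene Gm26871 (exon 3 of one transcript and exon 1 of another), and the nearest protein-coding gene, Dpyd, which encodes dihydropyrimidine dehydrogenase, starts 128 kb away. Mir138-1 is at chr9:122682876-122682974 in exon 1 of Gm47135, annotated as a transcribed pseudogene, 64.4 kb from Topaz1. Mir138-2 is at chr8:94324311-94324381 within the only exon of the long intergenic non-coding RNA C78859, and 4.82 kb from Slc12a3, which encodes the thiazide-sensitive sodium chloride cotransporter. None of the 3 hairpins overlapped a protein-coding gene.

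Libraries held 5350259 to 11111883 reads assigned to mature miRNAs, so a count of 3 corresponded to 0.27 to 0.561 CPM (counts scaled to a common library total of 1000000), and every member was far above that in all 13 libraries. Of the markers used as a tissue check, all 3 for neurons (miR-124-3p, miR-9-5p, miR-128-3p) had reads, and their summed level ran from 273652 to 393267 CPM. Levels are read shares: CPM after scaling by trimmed mean of M-values (TMM). Marker sums are the exception, being scaled to the library total without TMM. A read covers a whole mature sequence of 21 to 23 bases, so no length correction applies, but how readily each sequence enters a library was not measured. These are pieces of tissue, in which fewer cells of a type and less RNA per cell cannot be told apart.

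miR-137-3p was the more variable of the guides, and its 4 groups overlapped. In FVB/N hippocampus its level was 543, 583 and 507 CPM in the 3 libraries. In TgR hippocampus it was 771, 1056 and 560 CPM, so 2 of 3 libraries were above every FVB/N library and the third lay within their range. FVB/N PFC gave 656, 1134 and 481 CPM. TgR PFC gave 593, 1770, 1002 and 549 CPM, so the PFC groups overlapped, with the lowest library in FVB/N mice and the highest in TgR mice. The group means ordered as FVB/N hippocampus (544 ± 38.2 CPM, SD, n = 3), FVB/N PFC (757 ± 338, n = 3), TgR hippocampus (796 ± 249, n = 3) and TgR PFC (978 ± 565, n = 4), and each neighbouring pair in this order overlapped. The highest library held 3.68 times the level of the lowest. Counting error was small beside this: with 4011 to 9742 reads a library, it amounts to 1.58% to 1.01% of the level (SD, counting error only). The SD within groups on the log2 scale was 0.58 for miR-137-3p, against a median of 0.21 over the 213 miRNAs averaging at least 100 CPM, and 7 of those 213 (3.29%) varied more. In each of the 4 groups the library numbered 2 was the highest for miR-137-3p, a pattern noticed after the values were seen. The PFC labels give the number as that of the animal, while the hippocampal labels do not say what it marks. Its 2 highest PFC libraries, TgR replicate 2 and FVB/N replicate 2, were also the 2 shallowest of the 13; across the 13 libraries miR-137-3p and log2 depth had r = -0.69 and rho = -0.24, and the part of depth in the levels was not tested.

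miR-138-5p was the most abundant member and ranked 73 of 647 expressed miRNAs, ahead of miR-137-3p at 99. Its level in FVB/N hippocampus was 1486, 1168 and 855 CPM, and in TgR hippocampus 1299, 1218 and 1222 CPM. FVB/N PFC libraries held 1743, 1329 and 1041 CPM, and those of TgR PFC 1131, 1282, 1261 and 1150 CPM. In both regions the TgR values sat inside the FVB/N range. Group means were 1169 ± 315 in FVB/N hippocampus, 1206 ± 76.4 in TgR PFC, 1246 ± 45.6 in TgR hippocampus and 1371 ± 353 in FVB/N PFC (SD, n = 3 and, for TgR PFC, 4), and neighbours in this order again overlapped. The coefficient of variation was 3.66% and 6.33% in the TgR groups and 27% and 25.7% in the FVB/N groups; this difference in spread was not tested. Its within-group SD of 0.26 (log2) was close to the median of 0.21, with 60 of 213 miRNAs more variable.

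**Figure D1:**
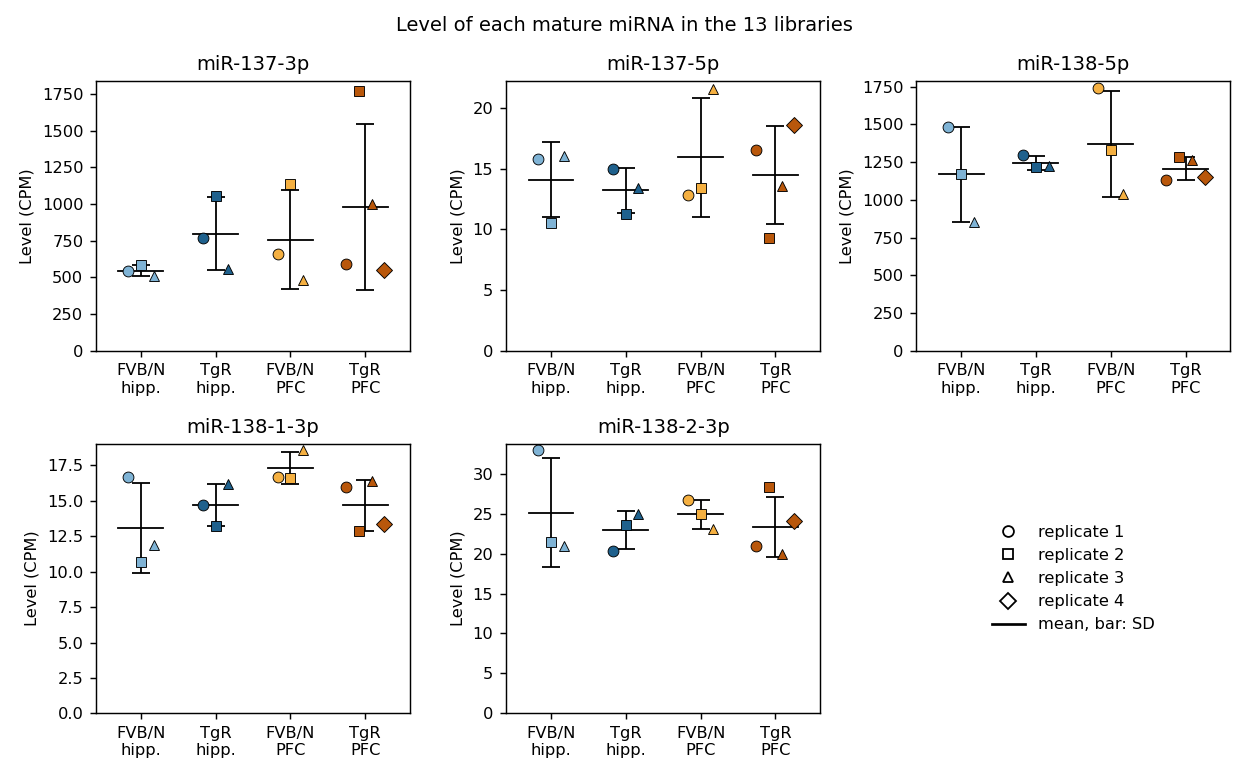
Level of each mature miRNA (vertical axis, CPM) in the 13 libraries by genotype and region, with marker shape for the replicate, a horizontal line for the group mean and bars for the SD. miR-137-3p runs from 481 to 1770 CPM with the widest spread in PFC, while miR-138-5p keeps between 855 and 1743 CPM and its TgR libraries lie close together.

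miR-138-5p reads were listed at both of its hairpins, with more at mir-138-1 in all 13 libraries. The count at mir-138-1 divided by that at mir-138-2 was 1.19 to 1.30 in 12 libraries. FVB/N PFC replicate 1 stood apart at 1.54, with 17569 reads at mir-138-1 and 11431 at mir-138-2; there the excess at mir-138-1 was 34.9% of its count, against 16.1% to 22.8% elsewhere. The levels given above use the mir-138-1 listing, so the highest miR-138-5p value of the series (1743 CPM) comes from the library in which the listings differ most. When mir-138-2 was used in its place, the log2 difference between TgR and FVB/N in PFC was -0.06 and not -0.19. The 3p arms, which do separate the loci, ordered the other way: miR-138-2-3p was above miR-138-1-3p in every library.

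**Figure D2:**
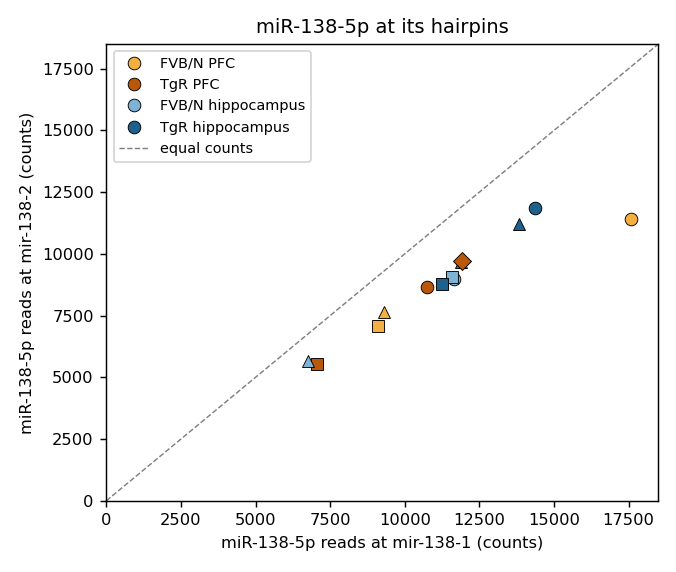
Reads of miR-138-5p listed at mir-138-1 (horizontal axis, counts) and at mir-138-2 (vertical axis, counts), 1 point a library, with a dashed line for equal counts. All 13 points lie below the line, and FVB/N PFC replicate 1 (17569 against 11431 reads) lies farthest from it.

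The passenger arms were scarce. miR-138-2-3p, the passenger of mir-138-2, measured 33.0, 21.4 and 20.9 CPM in FVB/N hippocampus and 20.3, 23.6 and 24.9 CPM in TgR hippocampus. Its PFC values were 26.7, 25.0 and 23.1 CPM in FVB/N and 21, 28.3, 20.0 and 24.1 CPM in TgR mice. Genotypes overlapped in both regions for this arm. miR-138-1-3p, the passenger of mir-138-1, was at 16.7, 10.7 and 11.9 CPM in FVB/N hippocampus and at 14.7, 13.2 and 16.2 CPM in TgR hippocampus. In FVB/N PFC it was at 16.7, 16.6 and 18.6 CPM, and in TgR PFC at 16.0, 12.9, 16.4 and 13.4 CPM. All 4 TgR PFC libraries were thus below all 3 FVB/N PFC libraries, the only such separation by genotype among the members, and 4.78% of the 628 miRNAs tested in PFC separated in one direction or the other. The gap was narrow, 16.4 against 16.6 CPM, and counting error alone was 11.9% to 7.39% of the level of this arm. miR-137-5p, the passenger of mir-137, was at 15.8, 10.5 and 16.0 CPM in FVB/N hippocampus, 15.0, 11.3 and 13.4 CPM in TgR hippocampus, 12.8, 13.4 and 21.6 CPM in FVB/N PFC, and 16.5, 9.26, 13.6 and 18.6 CPM in TgR PFC. It was read 51 to 193 times a library, where counting error alone is 14% to 7.2%.

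Relative to its guide, miR-137-5p amounted to 0.524% to 4.49% of miR-137-3p reads (median 1.95%), miR-138-1-3p to 0.916% to 1.78% of miR-138-5p, and miR-138-2-3p to 1.53% to 2.44% of miR-138-5p. In all 13 libraries, then, miR-137-3p dominated its passenger, and the shared miR-138-5p outnumbered each mir-138 passenger. Since miR-138-5p reads cannot be assigned to 1 hairpin, the arm ratio of each mir-138 hairpin alone was not measured. miR-138-1-3p was 52.5% ± 3.87 of miR-138-2-3p in FVB/N hippocampus, 64.4% ± 8.25 in TgR hippocampus, 69.9% ± 9.49 in FVB/N PFC (SD, n = 3 each) and 64.9% ± 17.2 in TgR PFC (SD, n = 4). For this ratio the FVB/N regions did not overlap (50% to 57% in hippocampus, 62.5% to 80.6% in PFC), while the TgR regions did (56% to 72.4% and 45.5% to 82%). Several ratios and pairs of groups were looked at, and this contrast between the genotypes was not tested. miR-137-3p was at 36.5% of miR-138-5p or more, and exceeded it in TgR PFC replicate 2 alone, at 1770 against 1282 CPM. These 5 ratios were compared on the log2 scale by a two-sided exact permutation test within the other factor (700 assignments, smallest possible p = 0.0014). Between hippocampus and PFC the adjusted p ran from 0.72 to 0.75 over the 5 ratios. Between genotypes it ran from 0.74 to 0.93, the widest gap being that of miR-137-5p to miR-137-3p, whose log2 ratio was lower by -0.51 in TgR mice (exact permutation p = 0.3). No shift in these 5 ratios was detected. For mir-138 they compare the passenger arms with each other or with the shared guide, so the output of each locus was not measured.

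**Figure D3:**
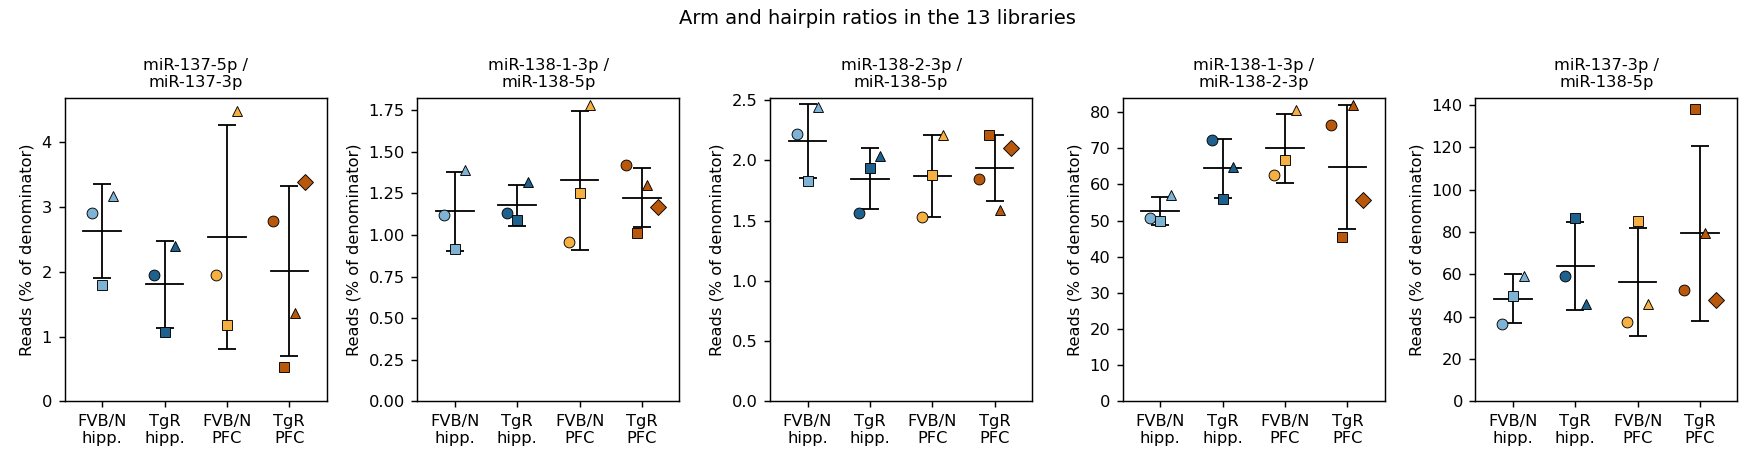
The 5 ratios between member miRNAs (vertical axes, reads as % of the denominator) in the 13 libraries, with group means and SD. Passenger arms stay between 0.524% and 4.49% of their guides, and the groups overlap in the panels for miR-137-5p, for both mir-138 passengers against the guide and for miR-137-3p against miR-138-5p.

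Whether AChE-R excess changed these miRNAs in hippocampus was tested with edgeR's quasi-likelihood test and Benjamini-Hochberg adjustment over the 619 miRNAs tested, of which 30 (4.85%) had an adjusted p under 0.05. None of the 5 members was among them, and the genotypes overlapped for all 5, while 22.3% of miRNAs did not overlap. Of the members 1 had an unadjusted p under 0.05, as had 17.4% of all tested. That member was miR-137-3p, 1.45 times as high in TgR as in FVB/N hippocampus (log2 difference 0.53, SE 0.21, 95% interval 0.05 to 1.02, adjusted p = 0.22 by edgeR's quasi-likelihood test). Much of the value came from 1 library: without TgR hippocampus replicate 2 the log2 difference was 0.26, with an edgeR adjusted p of 0.55. Without any 1 of the other libraries it was 0.51 to 0.74, the highest without TgR hippocampus replicate 3. With no filter on low counts it was 0.57 and passed at an adjusted p of 0.023, while across the other alternatives the adjusted p was 0.1 to 0.57. The other members differed less: miR-138-5p by 0.08 (SE 0.18, interval -0.32 to 0.48), miR-138-1-3p by 0.15 (SE 0.21), miR-138-2-3p by -0.14 (SE 0.22) and miR-137-5p by -0.11 (SE 0.22), with edgeR adjusted p from 0.74 to 0.85. For miR-138-5p the interval corresponds to 0.80 to 1.39 times the FVB/N level. Marker miRNAs of other cell types moved with genotype in the same hippocampal libraries: the 5 choroid plexus markers, all with reads, summed to 2107 to 8503 CPM in TgR and 1408 to 1884 CPM in FVB/N, the 4 red blood cell markers to 810 to 1165 and 1653 to 1942 CPM, the 4 of microglia and white blood cells to 708 to 779 and 593 to 702 CPM, and the 3 of muscle and liver to 592 to 751 and 278 to 461 CPM. These sums are without TMM, whose factors were 0.938 to 1.045 in FVB/N and 0.996 to 1.067 in TgR hippocampus. The narrow gap of the microglia and white blood cell markers (702 against 708 CPM) may therefore not hold after TMM. What part the markers had in the miR-137-3p values was not tested. p-values here measure the spread between these mice only.

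In PFC 1 of 628 miRNAs (0.159%) differed between genotypes at an adjusted p under 0.05 and it was no member. The log2 difference of miR-137-3p was 0.37 (SE 0.45, 95% interval -0.66 to 1.40), an interval that holds both a fall to 0.63 and a rise to 2.63 times the FVB/N level. Without TgR PFC replicate 2, the library at 1770 CPM, it was -0.09. miR-138-5p differed by -0.19 (SE 0.17, interval -0.59 to 0.21) and by 0.03 without FVB/N PFC replicate 1, the library whose hairpin listings stood apart. miR-138-1-3p, whose groups did not overlap, was 0.85 times the FVB/N level (log2 difference -0.24, SE 0.17, edgeR adjusted p = 1). miR-138-2-3p gave -0.10 (SE 0.18) and miR-137-5p -0.14 (SE 0.28). Unadjusted edgeR p was 0.18 or more for all 5 members, and 3.18% of all miRNAs were under 0.05.

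The genotype effect in hippocampus minus that in PFC was tested on all 13 libraries, where 3 of 647 miRNAs (0.464%) passed. No member did, and 0 had an unadjusted edgeR p under 0.05 against 8.5% of all. The difference of effects was 0.40 for miR-138-1-3p (log2, SE 0.27, adjusted p = 0.77), 0.28 for miR-138-5p (SE 0.27), 0.18 for miR-137-3p (SE 0.55), 0.04 for miR-137-5p (SE 0.38) and -0.03 for miR-138-2-3p (SE 0.28). With an SE of 0.55, the interval for miR-137-3p runs from -1.01 to 1.37, and without 1 library its value ran from -0.21 (FVB/N PFC replicate 2 left out) to 0.62 (TgR PFC replicate 2 left out). For miR-138-5p the value was 0.06 without FVB/N PFC replicate 1, 0.11 without FVB/N hippocampus replicate 3 and 0.13 when counted at mir-138-2.

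Hippocampus and PFC were compared within each genotype, and again no member passed. In FVB/N mice 49 of 647 miRNAs (7.57%) passed, and 20.9% had an unadjusted p under 0.05, as had 0 of the 5 members. miR-138-1-3p came nearest, at 0.76 times its PFC level in hippocampus (log2 difference -0.40, SE 0.20, 95% interval -0.83 to 0.02, edgeR adjusted p = 0.26), though FVB/N hippocampus replicate 1 reached 16.7 CPM, inside the PFC range. miR-137-3p was at -0.48 (SE 0.41), miR-138-5p at -0.23 (SE 0.20), miR-137-5p at -0.18 (SE 0.28) and miR-138-2-3p at 0.01 (SE 0.21). The guides moved with single libraries: miR-137-3p was at -0.09 without FVB/N PFC replicate 2, and miR-138-5p at -0.04 without FVB/N PFC replicate 1, at -0.09 without FVB/N hippocampus replicate 3 and at -0.14 when counted at mir-138-2. In TgR mice 66 of 647 miRNAs (10.2%) passed, and 23% were under 0.05 unadjusted, again with 0 of the 5 members. There miR-137-3p differed by -0.30 (SE 0.38), miR-137-5p by -0.14 (SE 0.26), miR-138-5p by 0.05 (SE 0.18, interval -0.35 to 0.44), miR-138-2-3p by -0.02 (SE 0.19) and miR-138-1-3p by 0.00 (SE 0.18), with edgeR adjusted p of 0.71 or more. Summed neuronal markers were 273652 to 306566 CPM in hippocampus and 341645 to 393267 CPM in PFC, and those of oligodendrocytes (3 of 3 with reads) 1424 to 3932 and 572 to 1060 CPM. The neuronal sum does not speak for each of its markers. Hippocampus minus PFC, miR-128-3p was at -0.57 in FVB/N and -0.65 in TgR mice (log2). By contrast, miR-9-5p was at 0.02 and -0.06, and miR-124-3p at -0.12 and 0.32. Choroid plexus markers also separated the regions, at 1408 to 1884 against 872 to 1379 CPM in FVB/N and 2107 to 8503 against 925 to 1269 CPM in TgR mice. In FVB/N mice the markers of microglia and white blood cells did so too (593 to 702 CPM in hippocampus, 745 to 1061 in PFC), and in TgR mice those of red blood cells (810 to 1165 and 1900 to 3924 CPM) and of vessels (17805 to 20846 and 22856 to 25349 CPM, 3 of 3 with reads). With sums taken without TMM, narrow gaps may not hold after it, such as 1379 against 1408 CPM for choroid plexus in FVB/N. What part the markers had in the regional values was not tested. No member separated the regions completely in either genotype, whereas 21% of miRNAs in FVB/N and 27.4% in TgR mice did.

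**Figure D4:**
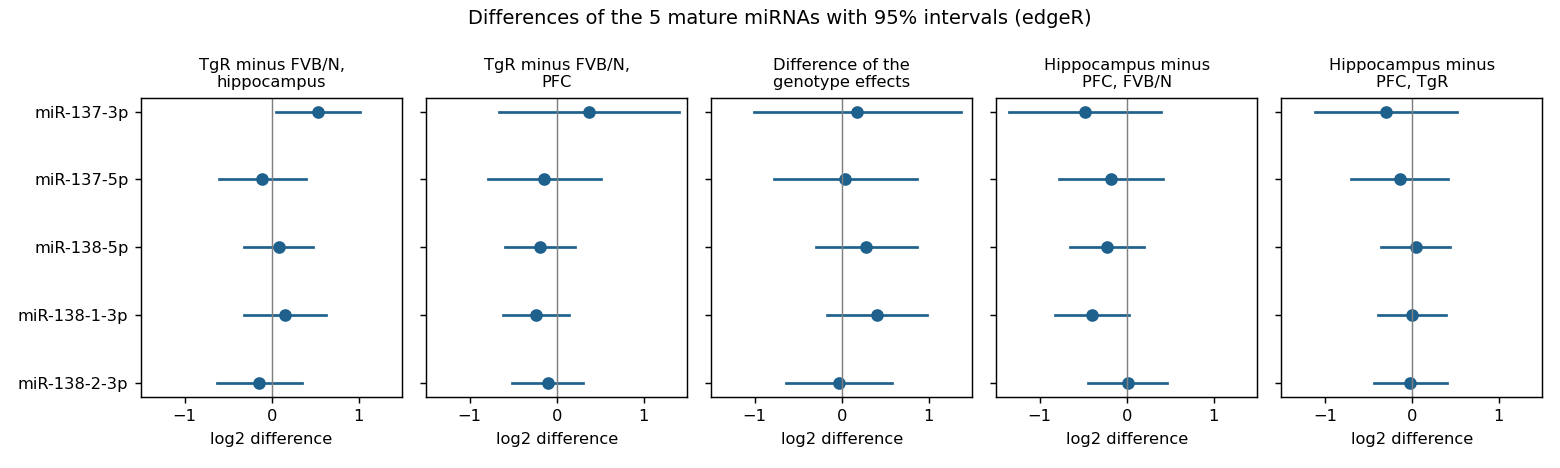
Log2 differences (horizontal axes) of the 5 mature miRNAs in the 5 comparisons, with 95% intervals from edgeR. Only the interval of miR-137-3p in hippocampus (0.05 to 1.02) leaves out 0, and its adjusted p was 0.22.

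Other miRNAs with reported roles at synapses, dendrites or spines put these values in context. Of the 24 on that list, all 24 were tested. Between genotypes 0 passed in hippocampus (5 at an unadjusted edgeR p under 0.05), 0 in PFC (1 unadjusted), and 0 for the difference of effects (3 unadjusted); their median log2 difference was 0.03, -0.05 and 0.06, against -0.00, 0.00 and 0.03 for all miRNAs. Unlike the members, some of the list passed between regions. In FVB/N mice 3 were higher and 3 lower in hippocampus, where 4.79% of all miRNAs were higher and 2.78% lower, and the list median was 0.02 as for all miRNAs. Activity-induced miR-132-3p had a log2 difference of -1.11 (SE 0.20, edgeR adjusted p = 0.0045) and miR-135a-5p one of -0.75 (SE 0.17, adjusted p = 0.019). The remaining lower one was miR-128-3p, also a neuronal marker, at -0.57 (SE 0.16, edgeR adjusted p = 0.044). miR-181a-5p was higher by 0.42 (SE 0.10, edgeR adjusted p = 0.022), miR-218-5p by 0.65 (SE 0.17, adjusted p = 0.034) and miR-219a-5p, which is also an oligodendrocyte marker, by 1.41 (SE 0.36, adjusted p = 0.032). In TgR mice, where 5.41% of all were higher and 4.79% lower with a median of 0.05, the list median was 0.13. On the list 1 was higher, miR-219a-5p by 2.23 (SE 0.33, edgeR adjusted p = 0.00071), and 2 were lower, miR-128-3p at -0.65 (SE 0.15, adjusted p = 0.013) and miR-135a-5p at -0.65 (SE 0.16, adjusted p = 0.02). Whether a member's regional difference departs from that of these miRNAs was not tested.

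The level of miR-137-3p across the 13 libraries was followed closely by a few other miRNAs, which are described without a test. Among 211 miRNAs with a mean of at least 100 CPM, Pearson's r with miR-137-3p on log2 CPM was 0.98 for miR-29c-3p, 0.96 for miR-376b-3p, 0.95 for miR-29b-3p, 0.93 for miR-380-3p and 0.90 for miR-376a-5p, against a median of -0.07. Their sequences show that the likeness is not one of shared seeds with miR-137-3p.
miR-29c-3p: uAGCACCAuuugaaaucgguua
miR-376b-3p: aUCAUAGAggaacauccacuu
miR-29b-3p: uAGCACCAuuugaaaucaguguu
miR-380-3p: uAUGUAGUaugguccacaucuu
miR-376a-5p: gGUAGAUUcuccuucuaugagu
miR-29c-3p and miR-29b-3p have one seed between them, and the miR-376 and miR-380 hairpins belong to the imprinted cluster on mouse chromosome 12. miR-29c-3p measured 218, 254 and 210 CPM in FVB/N hippocampus, 335, 539 and 300 CPM in TgR hippocampus, 304, 536 and 174 CPM in FVB/N PFC, and 249, 857, 414 and 212 CPM in TgR PFC. As with miR-137-3p, its highest value was TgR PFC replicate 2 and its lowest FVB/N PFC replicate 3. Without the 2 libraries highest in miR-137-3p (TgR PFC replicate 2 and FVB/N PFC replicate 2) r was 0.95 for miR-29c-3p and 0.82 to 0.89 for the other 4. The 13 libraries share genotype, region and depth among them, so r describes these libraries only. None of the 5 passed in any comparison between genotypes or regions, the nearest being miR-29c-3p in hippocampus, with a log2 difference of 0.77 (SE 0.23, edgeR adjusted p = 0.09).

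The passenger of the same hairpin did not follow its guide. miR-137-5p and miR-137-3p had r = -0.70 and rho = -0.68 over the 13 libraries, and r = -0.55 without the 2 libraries highest in the guide. In TgR PFC replicate 2, where miR-137-3p peaked at 1770 CPM, miR-137-5p was at its lowest, 9.26 CPM. In FVB/N PFC replicate 3, where the guide was lowest at 481 CPM, the passenger was highest at 21.6 CPM. miR-137-5p had r = 0.52 and rho = 0.35 with log2 depth. Between the families, miR-138-5p and miR-137-3p had r = 0.30 and rho = 0.52.

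**Figure D5:**
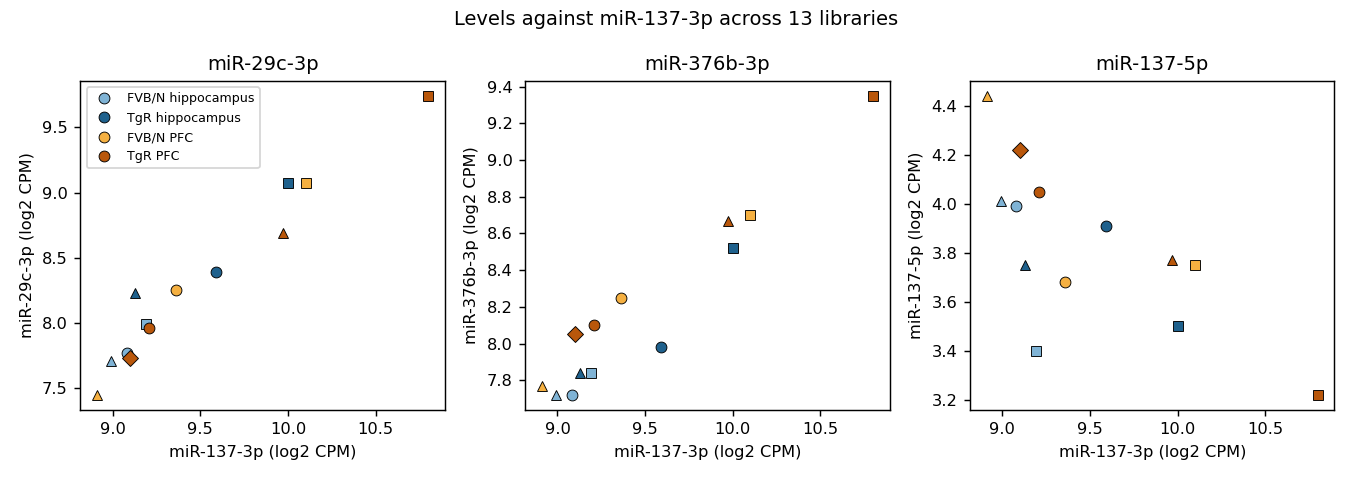
Levels (vertical axes, log2 CPM) of miR-29c-3p, miR-376b-3p and miR-137-5p against miR-137-3p (horizontal axis, log2 CPM), 1 point a library, colour for group and shape for replicate as in the plot of levels. The points of the first 2 run upward with miR-137-3p (r = 0.98 and 0.96) and those of the passenger arm miR-137-5p run downward (r = -0.70).

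On log2 CPM over the 13 libraries, miR-138-5p had no such close companions. Its 5 most similar miRNAs were miR-154-5p (r = 0.74), miR-342-3p (0.72), miR-664-3p (0.72), miR-22-3p (0.70) and miR-129-1-3p (0.68). The 2 libraries farthest from its median were FVB/N hippocampus replicate 3 and FVB/N PFC replicate 1. Without them r was 0.35, 0.36, 0.27, 0.32 and -0.05 in the same order. Leaving out the farthest libraries narrows the range, which can lower r by itself. Over all 13 libraries rho was 0.65, 0.7, 0.56, 0.7 and 0.35. How far the likeness rests on those libraries was not tested. On deviations from the group means, the highest r with miR-138-5p was 0.85, for miR-22-3p. With miR-137-3p the highest was 0.99, for miR-376b-3p.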

How the data were processed

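Small RNA libraries of total RNA from 13 mouse brain samples were analysed, 3 or 4 a group, grouped by the labels. The deposited counts were made by the authors with miRExpress 2.0 at default settings on miRBase 21; they are raw counts per pair of hairpin and mature miRNA, and a pair that was not listed was taken as 0. Where hairpins share a mature miRNA, the pair with the largest total was kept (71 miRNAs). Counts were filtered with filterByExpr (minimum count 10), scaled by TMM and tested with edgeR 4.0.16 (quasi-likelihood, R 4.3.3): genotypes within each region, regions and the difference of effects on all 13 libraries. Ratios used a pseudocount of 0.5. Called means an adjusted p under 0.05. The steps were tested on simulated data. Alternatives were DESeq2 1.42.0, other scalings and filters, pairs as deposited, a replicate block, other sample sets and leaving out each library; counting miR-138-5p at mir-138-2 was added after seeing the data. Intervals cover the spread between libraries, and counting error is given apart. Likeness was Pearson's r on log2 CPM (prior 0.5), and where stated on its deviations from the group means. Sequences and GRCm38.p6 positions came from RefSeq and overlaps from GENCODE M21. The members and lists were chosen with earlier results of these data known. Named miRNAs follow a rule: every member arm, up to 5 list miRNAs a comparison past the threshold, and the 5 most similar to each guide. Outside this rule, miR-128-3p between regions in FVB/N and the regional differences of the neuronal markers were added.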

Additional observations from a re-analysis of the deposited data

How the results depend on the processing

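Of 25 member differences (5 miRNAs in 5 comparisons), 9 kept their sign under every alternative run and 16 changed it at least once; of 370 alternative values, 1 passed the threshold, miR-137-3p between genotypes in hippocampus with no filter on low counts (0.57, adjusted p = 0.023). The cause of the changes below was not tested.

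Values with the other sign were these. For the difference of genotype effects they were -0.02 for miR-137-3p with the replicate block, -0.02 for miR-137-5p with pairs as deposited, and 0.10, 0.04 and 0.02 for miR-138-2-3p with library size only, no filter and the replicate block. For miR-137-5p between genotypes in hippocampus it was 0.0049 with library size only. For miR-138-2-3p between regions in FVB/N they were -0.03 (DESeq2, and no filter), -0.02 (DESeq2 size factors, and the replicate block), -0.04 (library size only) and -0.0021 (pairs as deposited). Between regions in TgR mice they were, for miR-138-5p, -0.0029 (DESeq2), -0.0037 (DESeq2 size factors), -0.0063 (pairs as deposited) and -0.0061 (counted at mir-138-2), for miR-138-1-3p -0.05 (DESeq2, and its size factors), -0.06 (pairs), -0.04 (replicate block) and -0.02 (libraries of that genotype only), for miR-138-2-3p 0.06 (library size only), 0.01 (no filter) and 0.0049 (replicate block), and for miR-137-5p 0.03 (replicate block). None of the 160 alternative values of the ratios passed.

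Leaving out 1 library at a time gave, between genotypes in hippocampus, -0.30 to 0.02 for miR-137-5p, -0.08 to 0.28 for miR-138-5p and -0.25 to 0.09 for miR-138-2-3p, and in PFC -0.09 to 0.77 for miR-137-3p, -0.28 to 0.15 for miR-137-5p and -0.35 to 0.03 for miR-138-5p. The difference of effects ran from -0.21 to 0.62 for miR-137-3p, -0.28 to 0.17 for miR-137-5p and -0.13 to 0.19 for miR-138-2-3p. Between regions it gave -0.33 to 0.10 for miR-137-5p and -0.23 to 0.09 for miR-138-2-3p in FVB/N, and -0.58 to 0.13 for miR-137-3p, -0.13 to 0.04 for miR-138-1-3p and -0.14 to 0.06 for miR-138-2-3p in TgR mice. The log2 ratio of miR-137-5p to miR-137-3p between regions ran from -0.11 to 0.42 and that of miR-138-1-3p to miR-138-5p between genotypes from -0.12 to 0.10.

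Counts of called miRNAs over the whole table moved more. In hippocampus the 30 became 48 with DESeq2, 64 with no filter, 17 with the replicate block and 2 to 18 without 1 library (2 without FVB/N hippocampus replicate 3). The 3 for the difference of effects became 10 with DESeq2, 16 with no filter, 10 with the replicate block and 2 to 8 without 1 library (8 without TgR hippocampus replicate 2). The 49 between regions in FVB/N became 22 with libraries of that genotype only and 24 to 50 without 1 library (24 without FVB/N PFC replicate 2), and the 66 in TgR 29 to 60 (29 without TgR hippocampus replicate 1). Library size only moved the median log2 difference of all miRNAs from 0.027 to 0.146 for the difference of effects, and the split of higher to lower calls from 15 and 15 to 14 and 7 in hippocampus and from 35 and 31 to 53 and 22 between regions in TgR. Same-numbered libraries did not all deviate together: r ran from -0.38 to 0.57 over 12 pairs, with the 4 pairs numbered 2 at 0.04 to 0.57. The files of FVB/N PFC carry other numbers than the titles, so the number was not taken as a pairing; the replicate block changed no member's call.

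Passenger arms rest on 51 to 282 reads a library, which limits them; the guides are limited by the spread between 3 or 4 mice.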

Other observations

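The 5 miRNAs most similar to miR-137-3p had a GC content of 34.8% to 40.9%, and miR-137-3p itself 34.8%, against a median of 45.5% over the 182 compared miRNAs with a sequence. Over those 182, likeness to miR-137-3p and GC content had rho = -0.23, a weak relation across miRNAs, which are not independent.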
